A study of Mus musculus with 4 samples.

Results

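The 6 interferon-inducible members of the ADP-ribosylation machinery measured here were Parp9, Dtx3l, Parp14, Parp10, Parp11 and Parp12, and Parp1 was added as a gene of the same family tied to DNA repair and proliferation. These 7 genes, of 32285 in each matrix, were chosen by name. Their raw unique molecular identifier (UMI) counts were summed per marker-gated cell class and library in all 4 single-cell matrices. The hosts were WT C57BL/6 mice of 6 to 8 weeks that had received MA9 cells, mouse leukemia cells driven by the MLL-AF9 fusion. These cells carried a DOX-inducible hairpin against Prmt9 (shPrmt9) or a control hairpin (Ctrl). All mice drank doxycycline for 7 days. Bone marrow and spleen of each arm gave 1 library each, named by tissue and arm (BM-Ctrl and BM-shPrmt9 for the marrow, Spleen-Ctrl and Spleen-shPrmt9 for the spleen). By design only the transplanted cells carry a hairpin, and all hosts share the leukemia and the drug.

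Poly(ADP-ribose) polymerases transfer ADP-ribose from NAD+ to proteins. PARP1 builds long chains at DNA breaks, whereas most of the other members add a single unit. Several members of the family are induced by interferon, and some of these restrict viruses. PARP9 works in a complex with the ubiquitin ligase DTX3L, and PARP14 joins macrodomains that read ADP-ribose to a mono-transferase domain. PARP10 is a mono-transferase, PARP11 acts on a ubiquitin ligase that turns over the interferon receptor and PARP12 carries zinc fingers that bind RNA. In blood cells these genes are read as part of the interferon response, which neutrophils, monocytes and lymphocytes all can mount.

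Parp9, Dtx3l and Parp14 lie side by side in the mouse genome. In the GENCODE annotation of GRCm38, the build named in the processing notes as mm10, Parp9 spans chr16:35938470-35972605 on the plus strand and Dtx3l spans chr16:35926511-35939151 on the minus strand. Their starts are 681 bp apart and the genes overlap head to head on opposite strands. Parp14 follows on the minus strand at chr16:35832874-35871544, with its start 67607 bp from that of Dtx3l. Parp10 (chr15:76231174-76243441, minus strand) overlaps Plec on the same strand. Parp14, Parp11 and Parp1 each overlap a predicted or microRNA gene on their own strand (Gm49730, Gm43633 and Mir6904), so UMIs of these 4 genes could in part belong to the overlapping gene. Parp11 (chr6:127446840-127494261, plus strand) and Parp12 (chr6:39086410-39118349, minus strand) lie apart on one chromosome, and Parp1 spans chr1:180568924-180601254 on the plus strand.

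The 250 bases before the start of a gene were searched on both strands for 2 motifs of 9 letters, GAAANNGAA (the core of an interferon-stimulated response element; TTCNNTTTC on the other strand) and TTCNNNGAA (the GAS motif, which is its own reverse complement). RefSeq windows on GRCm38.p6 were at hand for 4 of the 7 genes and not for Parp9, Parp14 or Parp10. Of 32851 windows, 7.13% held the first motif and 7.02% the second. They are shown for the gene that held both motifs, for a partner gene of the complex, for the gene with the widest spread between classes and for the comparison gene. Capitals mark the motif letters, each window is written 5′ to 3′ on the strand of the gene, and the windows lie at chr6:127446590-127446839 (Parp11), chr16:35939028-35939277 (Dtx3l, inside Parp9), chr6:39118350-39118599 (Parp12) and chr1:180568641-180568890 (Parp1).
Parp11: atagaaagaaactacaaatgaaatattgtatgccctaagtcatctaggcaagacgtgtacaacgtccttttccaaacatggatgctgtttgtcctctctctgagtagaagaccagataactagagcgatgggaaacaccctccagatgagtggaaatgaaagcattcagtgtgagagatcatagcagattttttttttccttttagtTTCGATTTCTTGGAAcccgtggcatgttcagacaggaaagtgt
Dtx3l: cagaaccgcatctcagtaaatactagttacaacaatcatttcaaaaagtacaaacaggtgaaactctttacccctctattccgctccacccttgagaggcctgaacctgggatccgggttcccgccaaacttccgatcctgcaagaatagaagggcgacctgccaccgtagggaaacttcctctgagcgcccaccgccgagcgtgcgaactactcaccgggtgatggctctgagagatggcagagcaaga
Parp12: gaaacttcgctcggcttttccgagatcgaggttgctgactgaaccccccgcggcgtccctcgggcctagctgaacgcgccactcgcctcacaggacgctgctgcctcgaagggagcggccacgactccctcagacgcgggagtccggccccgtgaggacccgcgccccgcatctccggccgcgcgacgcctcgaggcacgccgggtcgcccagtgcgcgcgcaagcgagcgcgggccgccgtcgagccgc
Parp1: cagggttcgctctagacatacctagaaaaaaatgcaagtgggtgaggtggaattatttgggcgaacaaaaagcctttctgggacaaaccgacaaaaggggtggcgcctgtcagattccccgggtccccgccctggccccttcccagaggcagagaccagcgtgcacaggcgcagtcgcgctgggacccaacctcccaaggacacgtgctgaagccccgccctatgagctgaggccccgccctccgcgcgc
In Parp11 the 2 matches overlap, one beginning 43 and the other 37 bases before the start. A different RefSeq start of Parp11 (chr6:127453377-127453626) and the Dtx3l, Parp12 and Parp1 windows held neither, which says only that these letters are not in these windows. The Dtx3l window follows a RefSeq start, and part of it lies inside the GENCODE span of Dtx3l, which reaches 35939151.

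After filtering, the 4 libraries held 8065 to 11174 cells, with median depths of 6668 to 10548 UMIs per cell. Cells were put in a class when they passed a gate on marker genes, and cells passing several gates were left out, which stood in for a doublet caller. MA9-gated cells numbered 1804 in BM-Ctrl, 1966 in BM-shPrmt9, 37 in Spleen-Ctrl and 183 in Spleen-shPrmt9. Their leading genes were Ctsg, Elane, Hpgd and Prtn3 ahead of Hoxa9 and Hoxa10, so 4 of the 10 were neutrophil-progenitor markers and 2 were markers of the gate, and values are those of the gate. The arms filled different clusters of several classes. Spleen B cells lay mostly in clusters 0 and 11 (Ctrl) or 15 and 19 (shPrmt9), and spleen T cells in clusters 8, 16 and 17 or 6 and 12. Of the marrow neutrophil clusters, cluster 1 held 2916 cells of BM-Ctrl and 148 of BM-shPrmt9, and cluster 3 held 119 and 2348. Pairs of libraries shared 15 to 35 cell barcodes. Y-linked genes gave 0 UMIs in marrow T and B cells of both arms and 218 and 217 CPM in spleen T cells of Spleen-Ctrl and Spleen-shPrmt9. The marrow and spleen hosts therefore differed in sex, and tissue and host sex cannot be told apart.

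The targeted gene, Prmt9, gave 1209 UMIs (11.1 CPM, UMIs per 1000000 UMIs of the class) in MA9-gated cells of BM-Ctrl and 665 UMIs (6.40 CPM) in BM-shPrmt9. The ratio was 0.57 (95% interval 0.52 to 0.63). In spleen MA9-gated cells it gave 28 UMIs (18.7 CPM) and 29 UMIs (5.80 CPM), a ratio of 0.31. Prmt9 was also lower in spleen T cells, which carry no hairpin, at 15.03 and 9.10 CPM.

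With 1 library per group, no test between arms was possible. Each level is a sum of UMIs divided by all UMIs of the class, with an exact Poisson interval, and each ratio of shPrmt9 to Ctrl carries an exact binomial interval. Both cover counting error only and leave out the spread between mice. A ratio was called when it reached 2-fold with at least 50 UMIs over both arms, in classes with at least 20 cells in each library. Fewer cells with the transcript and less transcript per cell are not separated by these sums.

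The 7 genes differed in where they were read (the plot of levels by class). Parp9 was highest in T cells of both spleen libraries, at 115 CPM in the Ctrl and 144 CPM in the shPrmt9 spleen. Monocytes of Spleen-shPrmt9, at 132 CPM from 39 cells, did not differ from those T cells beyond counting error. Parp14 was ordered alike at the top, with 245 and 462 CPM in spleen T cells and 401 CPM in Spleen-shPrmt9 monocytes, and both genes were lowest in control erythroid cells (3.96 and 7.82 CPM of Parp9 in spleen and marrow, 5.66 and 7.04 CPM of Parp14). Dtx3l was likewise highest in spleen T cells, at 196 and 215 CPM.

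**Figure D1:**
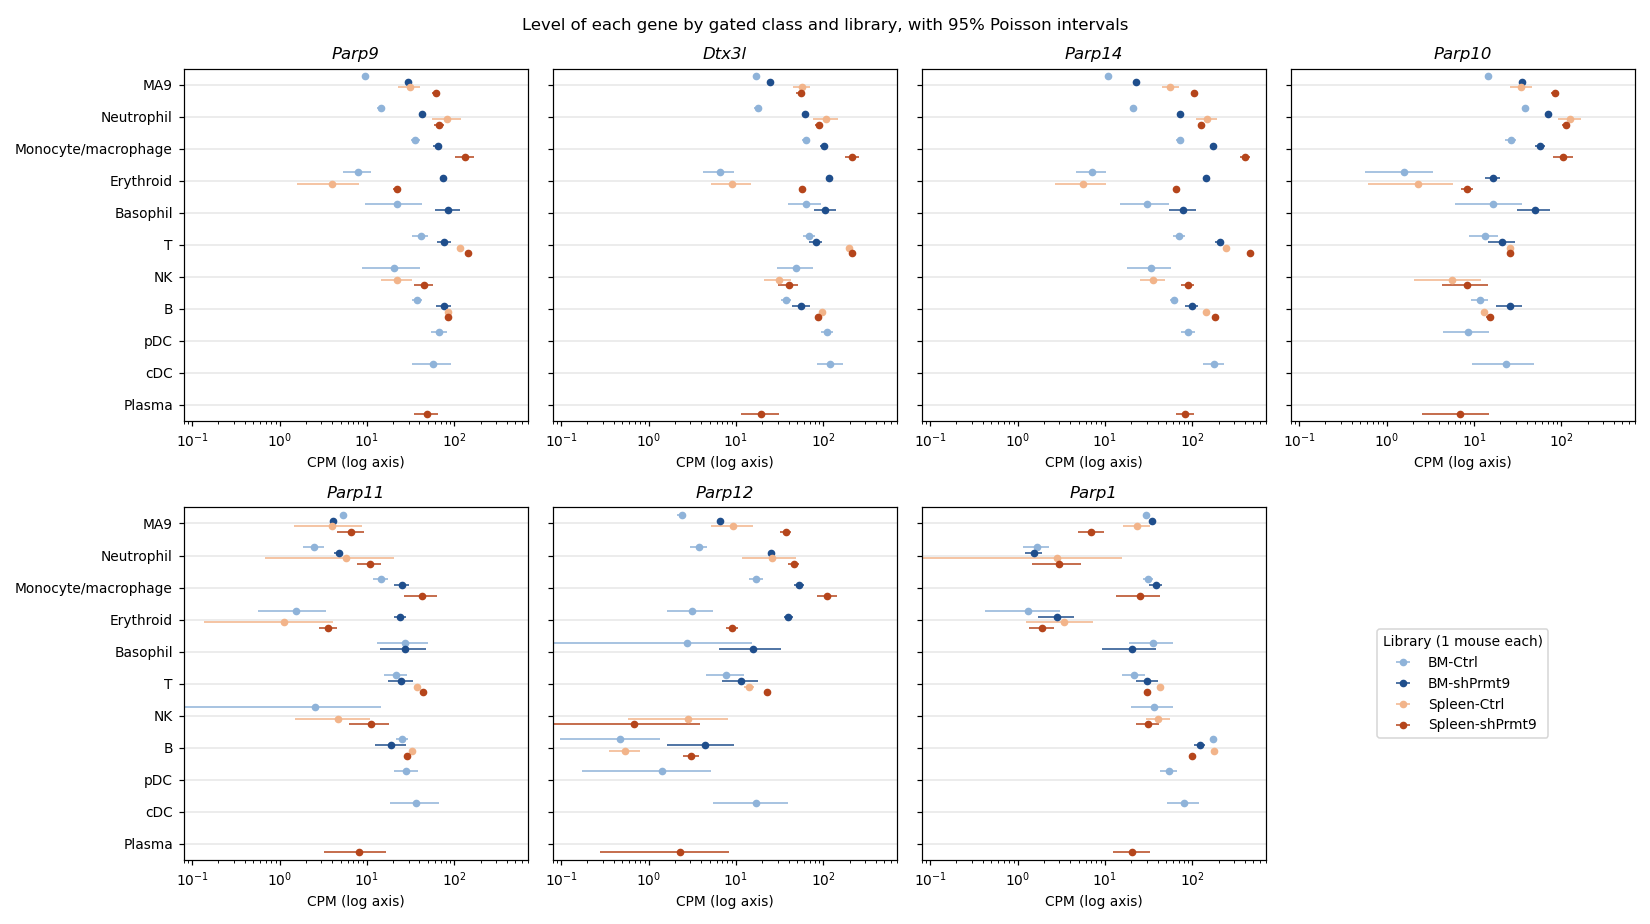
Level of each gene (CPM, log axis) in each gated class with at least 20 cells, 1 point per library with its 95% Poisson interval; classes with 0 UMIs are not drawn. Parp9, Dtx3l and Parp14 peak in spleen T cells and Spleen-shPrmt9 monocytes, Parp10 in spleen neutrophils, Parp12 in Spleen-shPrmt9 monocytes (111 CPM) and Parp1 in B cells.

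Parp10 instead was highest in neutrophils in each of the 4 libraries, with 38.0 CPM in BM-Ctrl, 69.7 in BM-shPrmt9, 125 in Spleen-Ctrl (46 cells) and 112 in Spleen-shPrmt9. In Spleen-shPrmt9 its level in 39 monocytes, 105 CPM, was not separated from that of neutrophils. Parp12 was highest in monocytes of Spleen-shPrmt9, at 111 CPM, and of BM-shPrmt9, at 52.9 CPM. It was close to absent from control B cells, at 3 UMIs (0.47 CPM) in BM-Ctrl and 27 UMIs (0.54 CPM) in Spleen-Ctrl. Parp11 ranged from 1.13 CPM in Spleen-Ctrl erythroid cells to 43.9 CPM in Spleen-shPrmt9 T cells. Parp1 was highest in B cells in all 4 libraries, at 173 and 121 CPM in the Ctrl and shPrmt9 marrow and 176 and 100 CPM in the spleen. Neutrophils had 1.65 and 1.54 CPM of it in the marrow. In BM-Ctrl neutrophils, markers of other classes stood at 4.08% to 20.8% of their library level, and free RNA at that rate would give 1.35 to 6.88 CPM of Parp1, so this level was not told apart from background.

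Of the complex, Parp9 was higher in the shPrmt9 marrow in all 6 classes compared, with every interval above 1. MA9-gated cells held 1042 UMIs (9.61 CPM) in BM-Ctrl and 3101 UMIs (29.9 CPM) in BM-shPrmt9, 3.11-fold (2.90 to 3.34). Neutrophils had 14.4 and 42.9 CPM, 2.97-fold. In host lymphocytes the ratio was smaller, with 41.1 and 76.7 CPM in T cells (1.86-fold, 1.41 to 2.47) and 37.8 and 75.7 CPM in B cells (2.00-fold, 1.58 to 2.53). Monocytes were 1.80-fold higher, at 35.9 and 64.7 CPM. In the spleen the gene was 2.01-fold higher both in MA9-gated cells (46 and 309 UMIs) and in NK cells (24 and 65 UMIs). Spleen T cells, which already stood at 115 CPM in Ctrl, were 1.25-fold higher, and spleen B cells did not differ, at 84.0 and 83.9 CPM (ratio 0.999, 0.95 to 1.05).

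Dtx3l, the ubiquitin ligase of the pair, had smaller ratios than Parp9 in several classes although the genes start 681 bp apart. MA9-gated marrow cells held 1845 UMIs (17.0 CPM) in BM-Ctrl and 2550 UMIs (24.6 CPM) in BM-shPrmt9, 1.44-fold (1.36 to 1.53), an interval that lies wholly below that of Parp9. In marrow T cells the levels were 69.0 and 81.5 CPM, 1.18-fold, and the interval held 1. In marrow B cells they were 37.3 and 55.9 CPM, 1.5-fold. Neutrophils went the other way, with 17.8 and 61.5 CPM or 3.46-fold, above the 2.97-fold of Parp9 but with overlapping intervals. In the spleen Dtx3l was level between the arms in MA9-gated cells (56.9 and 55.2 CPM, ratio 0.97) and close to it in T cells (1.10-fold) and B cells (0.90-fold). Basophils of the marrow held 23 and 47 UMIs of it, 1.68-fold (0.999 to 2.90), and were the class in which no other member reached 50 UMIs.

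Parp14 was higher in the shPrmt9 library in all 6 marrow classes compared, and in 5 of 6 spleen classes, by its interval. MA9-gated marrow cells had 1176 UMIs (10.8 CPM) and 2368 UMIs (22.8 CPM), 2.10-fold (1.96 to 2.26). T cells of the marrow had 154 and 342 UMIs, or 70.4 and 205 CPM, 2.91-fold (2.40 to 3.54), the one member called in that class. Monocytes had 71.4 and 174 CPM (2.43-fold) and marrow B cells 62.02 and 98.5 CPM (1.59-fold). In spleen T cells the sums were large, 4103 and 13000 UMIs, and the levels were 245 and 462 CPM, 1.89-fold (1.82 to 1.96). Within them, CD8 T cells had 191 and 393 CPM (2.06-fold, against 3.94% of genes called higher there) and CD4 T cells 358 and 551 CPM (1.54-fold), so the CD4 cells were higher in each library and the CD8 cells had the larger ratio. NK cells had 35.4 and 88.4 CPM, 2.50-fold, and spleen B cells 145 and 181 CPM, 1.25-fold. With classes taken from clusters instead of gates, the ratio in spleen T cells was 2.07 and that in spleen B cells 1.08.

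Parp10 was 2.44-fold higher in MA9-gated marrow cells (1564 and 3653 UMIs, 14.4 and 35.2 CPM) and 2.41-fold higher in those of the spleen (34.8 and 83.8 CPM). Marrow monocytes had 26.3 and 57.1 CPM (2.17-fold), marrow B cells 11.7 and 25.7 CPM (2.21-fold) and marrow neutrophils 38.0 and 69.7 CPM (1.83-fold). Spleen T cells had 26.2 and 26.0 CPM, a ratio of 0.995 (0.88 to 1.12), so here Parp10 did not follow Parp14.

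Parp12 had the largest ratios of any member in neutrophils, monocytes and spleen B cells. Marrow neutrophils held 84 UMIs (3.74 CPM) in BM-Ctrl and 1314 UMIs (24.9 CPM) in BM-shPrmt9, 6.66-fold (5.34 to 8.41). Monocytes had 17.1 and 52.9 CPM, 3.10-fold, and MA9-gated cells 2.40 and 6.53 CPM, 2.72-fold. In the spleen, MA9-gated cells had 14 and 187 UMIs (9.37 and 37.4 CPM, 3.99-fold) and T cells 14.3 and 22.9 CPM (1.60-fold). Spleen B cells went from 27 UMIs (0.54 CPM) in Spleen-Ctrl to 82 UMIs (3.08 CPM) in Spleen-shPrmt9, 5.69-fold (3.64 to 9.14). These last levels were low. Free RNA at the share of T-cell, neutrophil and erythroid markers in B cells would give 0.18 to 0.76 CPM in Spleen-shPrmt9. MA9 markers were left out of that range and stood in these B cells at 32.9% of their library level. Parp12 was at 15.4 CPM in the whole library. The part of free RNA in the B-cell level was not tested.

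Parp11 was lower with shPrmt9 in leukemic cells of the marrow. MA9-gated marrow cells held 583 UMIs (5.38 CPM) in BM-Ctrl and 430 UMIs (4.14 CPM) in BM-shPrmt9, a ratio of 0.77 (0.68 to 0.87), the one member lower in that class. Marrow B cells had 25.2 and 19.1 CPM (0.76, with an interval that held 1) and spleen B cells 32.9 and 28.9 CPM (0.88, 0.80 to 0.96). In spleen B cells the log2 ratios of Parp11 and Dtx3l were −0.19 and −0.15, beside a median of −0.17 over all genes. There 48.3% and 50.9% of genes had lower ratios, so neither gene was set apart from the rest. MA9-gated spleen cells held 6 and 33 UMIs of it, too few to compare. In marrow monocytes it was higher, at 14.5 and 25.3 CPM (1.74-fold), and in spleen T cells 37.2 and 43.9 CPM (1.18-fold).

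Parp1 showed no ratio of 2-fold in the marrow. MA9-gated cells held 3243 UMIs (29.9 CPM) and 3561 UMIs (34.3 CPM), 1.15-fold (1.09 to 1.20), monocytes 30.9 and 38.1 CPM (1.23-fold), and B cells 173 and 121 CPM (0.70, 0.59 to 0.83). In the spleen it was lower in each class whose interval left out 1. B cells held 8794 UMIs (176 CPM) and 2671 UMIs (100 CPM), a ratio of 0.57 (0.54 to 0.59), and T cells 43.2 and 30.3 CPM, a ratio of 0.70. MA9-gated spleen cells held 35 UMIs in each library, 23.4 and 7.00 CPM, a ratio of 0.30 (0.18 to 0.49), the one Parp1 ratio called.

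Over the 6 interferon-inducible members, 20 of 35 marrow ratios and 12 of 31 spleen ratios were at least 2-fold higher with shPrmt9, and 0 were at least 2-fold lower (the plot of ratios by class). Of all genes, 1.97% (marrow T cells) to 13.4% (spleen MA9-gated cells) were called lower in the classes where that share was taken. The 0 is therefore not read as a result about the members. The share of all genes called higher in each class is set beside the members. In the marrow, 4 of 6 were called in MA9-gated cells (11.1% of genes), 4 of 6 in neutrophils (3.05%), 3 of 6 in monocytes (6.03%), 2 of 5 in B cells (3.0%), 1 of 5 in T cells (2.41%), 0 of 1 in basophils (3.14%) and 6 of 6 in erythroid cells (16.2%). In the spleen, 3 of 5 were called in MA9-gated cells (11.0%), 2 of 3 in NK cells (8.14%), 1 of 6 in B cells (3.94%), 0 of 6 in T cells (4.47%), 0 of 5 in neutrophils (8.20%) and 6 of 6 in erythroid cells (12.2%). In erythroid cells of both tissues the members reached 50 UMIs only through the shPrmt9 library. Their sums were 6 to 30 UMIs in BM-Ctrl and 0 to 16 in Spleen-Ctrl, so these calls in part follow from that minimum. Called ratios with under 50 UMIs in Spleen-Ctrl also lay outside erythroid cells. They were Parp9 (46) and Parp12 (14) in MA9-gated cells, Parp9 (24) and Parp14 (38) in NK cells and Parp12 (27) in B cells. These members too reached the minimum only with the UMIs of Spleen-shPrmt9. The median log2 ratio of the members was 1.18 in MA9-gated marrow cells beside 0.01 over all genes, and 1.68 beside −0.28 in marrow neutrophils, and 3.81 beside 0.32 in marrow erythroid cells. It was 0.28 beside −0.04 in spleen T cells and 0.12 beside −0.17 in spleen B cells.

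**Figure D2:**
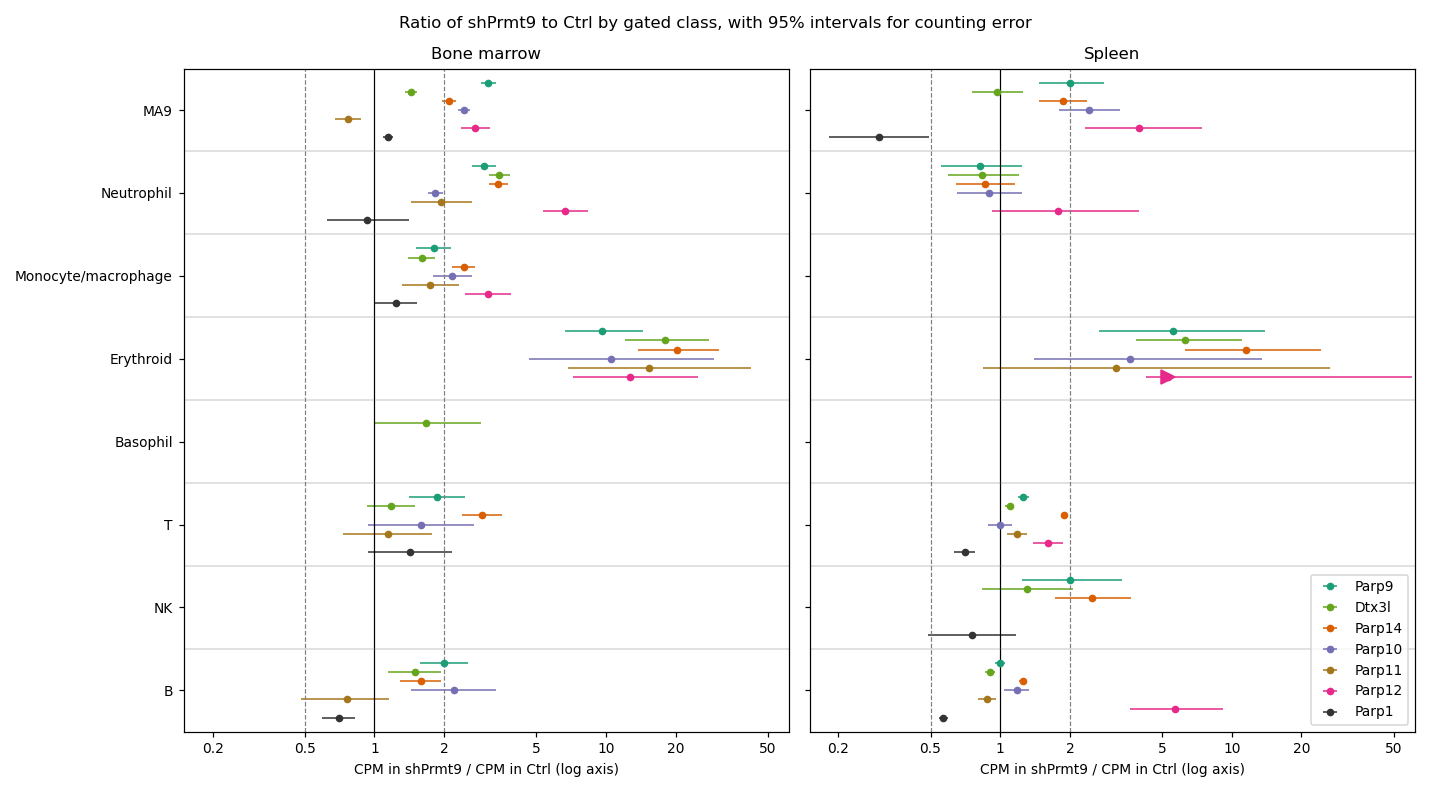
Ratio of CPM in shPrmt9 to CPM in Ctrl (log axis) for each gene and class with at least 50 UMIs, with 95% intervals for counting error; dashed lines mark 2-fold either way and the arrow is a lower bound. In the marrow the interferon-inducible members lie mostly right of 1, up to 20.2 for Parp14 in erythroid cells, while Parp1 stays between 0.70 and 1.42.

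In the spleen neutrophil gate all 5 intervals held 1, with Parp9 at 82.5 and 67.4 CPM, Parp14 at 148 and 127 CPM and Parp12 at 25.6 and 45.7 CPM. That gate held 46 cells in Spleen-Ctrl and 255 in Spleen-shPrmt9. MA9 markers in it were at 62.6 and 71.2 CPM, above the 22.4 and 34.0 CPM of the whole libraries, and Y-linked genes were at 131 and 67.1 CPM, against 218 and 217 CPM in T cells. The part of MA9 cells in these values was not tested.

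Erythroid cells had the widest ratios of any class. In the marrow Parp14 gave 27 UMIs (7.04 CPM) in BM-Ctrl and 945 UMIs (142 CPM) in BM-shPrmt9, 20.2-fold (13.8 to 30.9). Dtx3l was at 6.52 and 117 CPM (18.0-fold), Parp9 at 7.82 and 75.2 CPM (9.62-fold), Parp12 at 3.13 and 39.9 CPM (12.8-fold), Parp11 at 1.56 and 24.0 CPM (15.3-fold) and Parp10 at 1.56 and 16.4 CPM (10.5-fold). The Parp11 and Parp10 ratios rest on 6 UMIs each in BM-Ctrl, with intervals of 6.89 to 42.4 and 4.67 to 29.3. Free RNA would give 0.23 to 0.66 CPM of Parp10 in erythroid cells of BM-Ctrl. The BM-shPrmt9 erythroid levels of Parp14, Parp9 and Dtx3l exceeded those of the whole library, which were 53.0, 39.6 and 45.1 CPM. Markers of T cells and neutrophils, which erythroid cells lack, stood there at 7.60% and 4.06% of their library level, so free RNA at that rate would give 2.15 to 4.03 CPM of Parp14. Parp1 gave 5 and 19 UMIs and was not compared.

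The spleen erythroid ratios rest on few control counts. Spleen-Ctrl held 7 UMIs of Parp9, 16 of Dtx3l, 10 of Parp14, 4 of Parp10, 2 of Parp11 and 0 of Parp12 in 166 cells. Free RNA would give 2.37 to 6.33 CPM of Parp14 where 5.66 CPM was measured. MA9 markers, left out of this range too, stood at 5.04% of their library level. Spleen-shPrmt9 held 1279 UMIs of Parp14 (65.6 CPM) in 1702 cells, 11.6-fold (6.28 to 24.2), and Dtx3l was 6.30-fold higher. Parp12 had 176 UMIs against 0 and was at least 5.31-fold higher, from the floor of 3 counts in Spleen-Ctrl; the lower end of the exact interval was 4.27. The ratio of Parp11, 3.17, had an interval of 0.84 to 26.7. With classes from clusters, the spleen erythroid ratios of Parp14 and Dtx3l were 3.06 and 3.14.

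MA9-gated cells of the 2 marrow arms fell in different clusters. Cluster 10 held 67.1% of them in BM-Ctrl and 0 cells in BM-shPrmt9, and cluster 7 held 3.10% and 55.8%. Cluster 9 was the one with many cells of both, 488 and 788. Within it Parp9 was at 8.36 and 25.7 CPM, Dtx3l at 15.4 and 21.2, Parp14 at 8.22 and 18.2, Parp10 at 13.6 and 29.8 and Parp12 at 1.56 and 5.55 CPM, whereas Parp11 was at 6.18 and 3.37 CPM. In cluster 9 the members thus kept the directions they had over all MA9-gated marrow cells, and so did Parp1, at 30.6 and 43.0 CPM. Cluster 7 held 56 and 1097 cells of the 2 arms. There Parp9 was at 11.1 and 32.5 CPM, Parp10 at 22.8 and 41.5, Parp12 at 2.60 and 6.94 and Parp1 at 7.16 and 22.5. Parp14 was level in it at 24.7 and 24.5 CPM, as was Parp11 at 3.90 and 3.80 CPM. Dtx3l was at 20.2 and 24.7 CPM in it, with overlapping intervals. Of MA9-gated cells, 6.54% and 31.2% in the Ctrl and shPrmt9 marrow, and 35.1% and 88.5% in the spleen, also passed the neutrophil gate. Without those that passed the neutrophil or monocyte gate, the marrow ratios were 3.23 for Parp9, 1.41 for Dtx3l, 2.09 for Parp14, 2.33 for Parp10, 2.97 for Parp12, 0.76 for Parp11 and 1.35 for Parp1, and the spleen ratio of Parp14 was 1.43.

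The other genes of the pathway were read from lists. Of 12 interferon signaling and target genes, 8 were called higher in MA9-gated marrow cells, 10 in marrow T cells and 8 in marrow B cells. In the spleen, 8 were called higher in each of those classes. Of all genes, 11.1%, 2.41% and 3.0% were called higher in MA9-gated, T and B cells of the marrow. The shares in the spleen were 11.0%, 4.47% and 3.94%. Irf7, a transcription factor that drives interferon genes, was 4.47-fold higher in MA9-gated marrow cells (9.78 and 43.7 CPM) and 8.73-fold higher in spleen B cells (32.3 and 282 CPM). 0 of the 12 were called lower in these 6 class comparisons, in which 6.47%, 1.97% and 4.17% of marrow genes and 13.4%, 6.37% and 9.78% of spleen genes of MA9-gated, T and B cells were.

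Of 10 other genes of the PARP family, 0 of 10 were called in MA9-gated marrow cells, 0 of 8 in marrow T cells and 1 of 9 in marrow B cells, where Tiparp, a mono-transferase induced by the aryl hydrocarbon receptor, was 2.34-fold higher. In the spleen, Tiparp was 3.90-fold higher and Parp2, a partner of PARP1 in repair, 0.49-fold in MA9-gated cells. Parp16 was 0.18-fold in T cells (44 and 13 UMIs), and Parp8 and Parp16 were 0.44-fold and 0.28-fold in B cells. In the other classes the called genes, named after their values were seen, were the antiviral zinc finger gene Zc3hav1 (2.49-fold) and Tnks2 (2.12-fold) of 3 compared in marrow erythroid cells, Tnks2 of 2 in spleen erythroid cells (1 and 80 UMIs), Parp4 of 7 in spleen NK cells (2.08-fold), Parp16 of 10 in marrow neutrophils (0.47-fold) and Parp3 of 6 in spleen neutrophils (0.498-fold). Genes called lower made up 4.15% and 7.64% in those neutrophil gates. Whether the family and the members differ was not tested.

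Of the enzymes that remove or read ADP-ribose, Macrod1, a mono-ADP-ribose hydrolase, was 0.30-fold in MA9-gated marrow cells (16.4 and 4.96 CPM), 0.32-fold in spleen T cells and 0.47-fold in spleen B cells, and it was the one gene of that list called in these classes. Of that list, 7 genes were compared in each of these 3 classes, where 6.47%, 6.37% and 9.78% of all genes were called lower. In marrow monocytes Macrod1 (0.45-fold) and Oard1, a hydrolase of the same kind (0.499-fold), were called lower, of 6 compared (7.73% of all genes). 0 of the other Deltex genes were called in MA9-gated, T or B cells. Dtx2 (2.11-fold) and Dtx4 (2.01-fold), of 3 compared, were called higher in marrow monocytes and Dtx3, the single one compared, in marrow erythroid cells (6 and 51 UMIs). Oard1, Dtx2, Dtx3 and Dtx4 were likewise named after their values were seen.

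Across 31 sums (each class in each library with at least 20 cells), Parp9, Dtx3l and Parp14 varied together, with Pearson correlations of log2(CPM + 1) of 0.95 for Parp9 and Parp14, 0.90 for Dtx3l and Parp14 and 0.88 for Parp9 and Dtx3l. Parp10 and Parp12 correlated at 0.79 with each other and at 0.52 and 0.58 with Parp14. Parp14 and Parp1 correlated at 0.31. Among 11736 genes, the pattern most like that of Parp9 was that of Parp14, and Ogfr (0.92) was also among the nearest 3. For Dtx3l the nearest patterns were those of Parp14 and Parp9, and for Parp14 those of Parp9 and Dtx3l were among the nearest 3. Parp10 lay nearest to Ddx60 (0.91), Oas1a (0.87) and Il18bp (0.87), Parp12 to Oas1a (0.87), Oas3 (0.87) and Ifih1 (0.86), and Parp11 to Zup1 (0.87), Nub1 (0.85) and Daxx (0.83). Parp1 lay nearest to Phtf2 (0.94), Akr7a5 (0.93) and Ktn1 (0.93). Sums of one library share its depth and free RNA, and classes of one tissue share a host, so these values describe the 31 sums and are not tests.

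**Figure D3:**
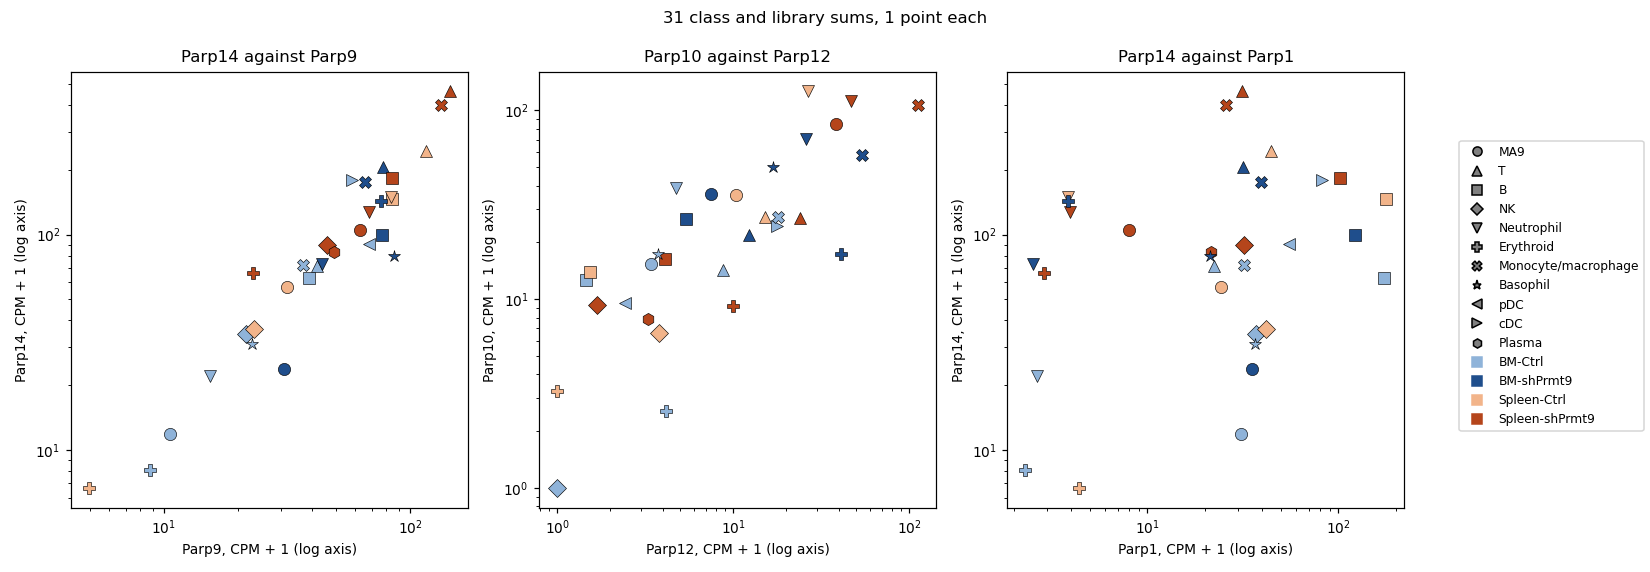
Each point is 1 of 31 class and library sums (CPM + 1, log axes; shape gives the class, color the library). Parp14 follows Parp9 (r = 0.95) and Parp10 follows Parp12 (r = 0.79) more closely than Parp14 follows Parp1 (r = 0.31), where B cells and neutrophils lie at opposite ends of Parp1.

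Parp1 did not follow the summed level of 15 proliferation genes across the 31 sums (r = 0.07), nor did Parp14 (r = −0.17). Within classes, cells were split at 10 UMIs of these genes per 10000. In MA9-gated cells of BM-shPrmt9, Parp1 was at 11.7 CPM in the 283 cells below that level and 36.9 CPM in the 1683 cells above it, 3.17-fold (2.65 to 3.81). In BM-Ctrl the ratio was 1.34. Spleen T cells with more proliferation UMIs had 1.60-fold and 1.96-fold more Parp1 in Spleen-Ctrl and Spleen-shPrmt9, and marrow monocytes 2.06-fold and 1.63-fold more in BM-Ctrl and BM-shPrmt9. Spleen B cells had ratios of 0.85 and 1.19.

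Parp14 was lower in the cells above the level in MA9-gated cells, marrow monocytes and spleen lymphocytes, and higher in them in erythroid cells. In MA9-gated cells of BM-shPrmt9 it was at 53.8 CPM in cells below the level and 19.2 CPM in cells above it, a ratio of 0.36 (0.32 to 0.39), and in BM-Ctrl the ratio was 0.62. It was 0.58 and 0.61 in spleen T cells and 0.57 and 0.64 in spleen B cells of Spleen-Ctrl and Spleen-shPrmt9. Parp9 had ratios of 0.58 in MA9-gated cells of BM-shPrmt9 and 0.89 in those of BM-Ctrl. In erythroid cells the Parp14 ratio was 5.72 (2.39 to 15.1) in BM-Ctrl, 2.06 (1.81 to 2.35) in BM-shPrmt9 and 10.3 (8.47 to 12.5) in Spleen-shPrmt9, and that of Parp9 was 2.41, 1.72 and 12.6. In Spleen-shPrmt9 all 7 genes were higher in the 118 erythroid cells above the level, from 6.47-fold (Dtx3l) to 21.2-fold (Parp11). Those cells held fewer UMIs each, so that a few proliferation UMIs reach the level. In them 47 UMIs of Parp9 made 250 CPM, and 384 made 19.9 CPM in the 1584 other cells. The part of depth and globin in these ratios was not tested. Neutrophils of the Ctrl and shPrmt9 marrow had Parp14 ratios of 1.05 and 0.87. Most of these neutrophils lay above the level, 3088 and 4080 cells against 1041 and 2252 below it. The proliferation genes themselves differed between arms. In the marrow, 7 of 15 were called higher in MA9-gated cells (11.1% of genes) and 5 of 15 in B cells (3.0%). In marrow erythroid cells 4 of 15 were called higher (16.2%), and in marrow monocytes 9 of 15 lower (7.73%). Of 6 in basophils 1 was called lower, and 0 were called in marrow neutrophils (of 15) and T cells (of 9). In the spleen, 7 of 15 were called lower in T cells (6.37%) and 5 of 15 in MA9-gated cells (13.4%). In spleen NK cells 6 of 9 were called lower. Spleen B cells had 4 of 15 called higher (3.94%) and spleen neutrophils 5 of 9 (8.20%). Of 7 in spleen erythroid cells, 1 was called higher (12.2%) and 1 lower. The part of the proliferation genes in the ratios between arms was not tested.

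**Figure D4:**
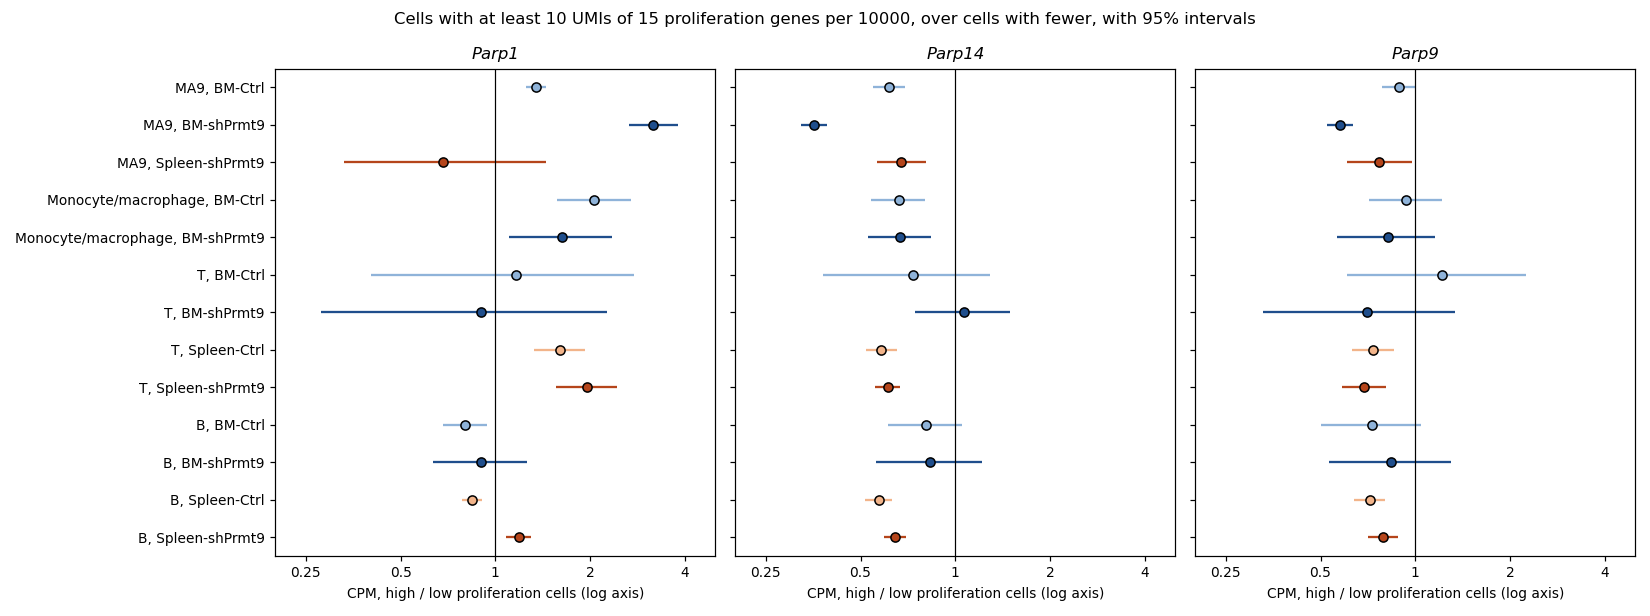
Ratio of CPM in cells with at least 10 proliferation UMIs per 10000 to CPM in cells with fewer (log axis), for Parp1, Parp14 and Parp9 in MA9-gated cells, monocytes, T and B cells, with 95% intervals for counting error; erythroid cells, where Parp14 had ratios of 2.06 to 10.3, are not drawn. Parp14 lies left of 1 in MA9-gated cells (0.36 in BM-shPrmt9), monocytes and spleen lymphocytes, and Parp1 right of 1 in marrow MA9-gated cells (3.17 in BM-shPrmt9), monocytes and spleen T cells; marrow T cells have intervals that hold 1.

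The levels also differed by tissue, which here includes host sex. In the Ctrl arm, spleen T cells had 2.80-fold the Parp9, 2.84-fold the Dtx3l and 3.48-fold the Parp14 of marrow T cells, and spleen B cells 2.22-fold, 2.60-fold and 2.34-fold that of marrow B cells. Parp10 in B cells differed by 1.12-fold with an interval that held 1, and Parp1 in B cells by 1.02-fold. MA9-gated cells, whose Y-linked genes were at 2.68 and 8.20 CPM in the spleen, had 3.20-fold the Parp9, 5.18-fold the Parp14 and 3.91-fold the Parp12 in Spleen-Ctrl as in BM-Ctrl, from 37 spleen cells. Parp11 in these cells was at 0.75-fold from 6 spleen UMIs, with an interval that held 1 (0.27 to 1.64). In MA9-gated cells of the shPrmt9 arm it was at 1.59-fold (1.08 to 2.27). In the shPrmt9 arm the Parp9 difference of B cells was 1.11-fold, with an interval that held 1, and that of T cells 1.88-fold. Erythroid cells of the shPrmt9 arm went the other way, with spleen levels of 0.29-fold for Parp9, 0.49-fold for Dtx3l, 0.46-fold for Parp14, 0.15-fold for Parp11 and 0.23-fold for Parp12. In Ctrl NK cells, Parp9 and Parp14 had ratios of 1.09 and 1.06 from 8 and 13 marrow UMIs, with intervals that held 1.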

How the data were processed

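Bone marrow and spleen cells were profiled with a droplet 3′ kit (v2 per the labels). The authors deposited raw UMI counts per gene and cell from Cell Ranger (6.0.2 in the matrix headers, 6.1.1 in the processing notes) on mm10; the annotation is not given in the sources used here. Totals were 83697505 to 187685189 UMIs in kept cells per library.

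Barcodes with fewer than 200 genes or over 20% mitochondrial UMIs were dropped (scanpy 1.11.5). Classes came from gates on marker genes: a minimum number of markers and of marker UMIs per 10000, set after the markers' values were seen. Clusters (27; 3000 variable genes, 30 components) served as a check. MA9 cells took precedence over neutrophil and monocyte gates. UMIs were summed per class and library. Ratios have exact 95% intervals, and a count of 0 was set to 3. TMM factors came from edgeR 4.0.16. Named genes were the 7 members, Prmt9, the 3 genes most like each member (at least 500 UMIs) and list genes past 2-fold. Irf7 was named after its values were seen. A gene among those most like the members is not reported here. The members and lists were chosen with earlier results of these data known. Simulated counts with known folds were recovered by the same code.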

Additional observations from a re-analysis of the deposited data

Results flagged for a closer look

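Parp1 in MA9-gated cells moved in opposite directions in the 2 tissues: its ratio of shPrmt9 to Ctrl was 1.15 in the bone marrow (3243 and 3561 UMIs) and 0.30 in the spleen (35 and 35 UMIs, in 37 and 183 cells). With 1 library per arm and tissue this difference was not tested. Of the MA9-gated cells of Spleen-shPrmt9, 88.5% also passed the neutrophil gate, against 35.1% in Spleen-Ctrl, and cells of the neutrophil gate held 2.85 CPM (1 UMI) and 2.95 CPM (11 UMIs) of Parp1 in these libraries; their part in the ratio was not tested.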

How the results depend on the processing

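No paired analysis was possible because each group had 1 library and no test was run; no library could be left out either. Of 748 ratios recomputed under other settings, 694 moved by less than their counting interval, 54 moved further and 0 changed direction past 2-fold. The marrow count of 20 members at least 2-fold higher was 11 at 3-fold and 29 at 1.5-fold, and 18 to 25 under the other settings run. The spleen count of 12 was 8 at 3-fold, 16 at 1.5-fold and 9 to 15 otherwise. For Parp1, the marrow count of 0 classes was 1 with classes from clusters and 1 with a minimum of 20 UMIs. Its spleen count of 1 was 2 when cells passing more than 1 gate were kept, 4 with classes from clusters, 2 at 1.5-fold and 0 without the MA9-gated cells that pass neutrophil or monocyte gates, a setting chosen after seeing the data, under which fewer UMIs were left to compare. Otherwise the cause was not tested. Of 33 called ratios, 6 fell under 2-fold in some setting: Parp9 in marrow B cells (1.80 to 1.98), spleen MA9-gated cells (1.67 to 1.93) and spleen NK cells (1.57 to 1.96), Parp10 in marrow B cells (1.91) and spleen erythroid cells (1.95), and Parp11 in spleen erythroid cells (1.63). Sums stayed under 50 UMIs for Parp12 in marrow T and B cells, Parp11 in spleen MA9-gated cells and spleen neutrophils, every member but Dtx3l in basophils, and Parp10, Parp11 and Parp12 in spleen NK cells.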

Other observations

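Rare classes were seen in single libraries and entered no comparison. In BM-Ctrl, 133 plasmacytoid dendritic cells had 67.4 CPM of Parp9, 110 CPM of Dtx3l and 89.4 CPM of Parp14, and 2 UMIs of Parp12. In the same library 20 cells passing the conventional dendritic cell gate, whose leading genes were Apol7c, Fscn1 and Ccl22, had 178 CPM of Parp14 and 80.5 CPM of Parp1. The 39 monocytes of Spleen-shPrmt9 had 213 CPM of Dtx3l and 42.2 CPM of Parp11, beside 11 monocytes in Spleen-Ctrl, too few to compare. NK cells of BM-Ctrl (37 cells) held 0 UMIs of Parp10 and of Parp12, which allows up to 7.72 CPM of each at the floor of 3 counts (exact 95% upper limit 9.50 CPM).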
